A study of Homo sapiens with 14 samples.

Results

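The genes described here encode parts of the Notch pathway: the receptors NOTCH1, NOTCH2 and NOTCH3, the ligands JAG1, JAG2 and DLL1, the nuclear coactivator MAML2, and the target genes HES1, HEY1 and NRARP. They were taken from the table by symbol and are 10 of the 58219 genes in the deposited count table. All 10 were measured in every library and all 10 passed the filter on low counts. The samples were 14 RNA-seq libraries of OVCAR4, an established human cell line of high-grade serous ovarian carcinoma, in 7 groups of 2. A small interfering RNA (siRNA) pool directs the breakdown of transcripts that match it. Groups siPAX8, siSOX17, siMECOM and siWT1 each received a Dharmacon pool against the transcription factor gene in their name, and siDual combined those for PAX8 and SOX17. The controls were siNT1, an ON-TARGETplus non-targeting pool, and siNT2, a custom non-targeting pool. Per the labels, 300000 cells per sample were reverse transfected at 120 nM siRNA, refed after 24 hours and harvested at 72 hours. Whether siDual received that dose in total or of each pool is not stated. No untransfected cells were analysed here, so all groups share the transfection itself. Nothing in the labels states that paired libraries were transfected separately, so p-values reflect spread between libraries that may be technical.

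Library depth was 41107918 to 49803860 counts in the 10 knockdown libraries and 40832825 to 49059114 in the 4 control libraries. PAX8 stood at 17.4% of its control level in siPAX8 and 25.2% in siDual, SOX17 at 13.0% in siSOX17 and 15.2% in siDual, and MECOM at 9.69% in siMECOM. WT1 had 1 count over both siWT1 libraries, against 75 over the 4 control libraries, so that knockdown rests on few reads. Of 15 markers of serous carcinoma and Mullerian epithelium, all 15 passed the filter, but WT1 and mesothelin (MSLN) were scarce, at 0.394 and 0.903 CPM (counts scaled to library size) in the controls. The 15 summed to 4195 to 21230 CPM in the knockdown libraries and 4598 to 5396 in the controls. The keratins KRT7, KRT8 and KRT18 made up most of the control sum, with means of 1598, 1408 and 774.5 CPM. Their highest values in any library were 5442, 9463 and 5262 CPM. The targets PAX8, SOX17, MECOM and WT1 are themselves among the 15. MUC16 ranged from 84.8 to 305.9 CPM and CDH1 from 104.1 to 274.7, around control means of 189.3 and 164.5. The 5 leukocyte markers summed to 9.85 to 44.3 CPM in the knockdown libraries and 18.7 to 22.6 in the controls, where CD68 made up most of the sum. The 5 endothelial markers summed to 6.44 to 20.9 CPM in the knockdown libraries and 8.48 to 10.5 in the controls, and the 7 fibroblast markers, mostly COL1A1, to 26.2 to 84.0 in the knockdown libraries and 35.4 to 45.6 in the controls. The part of these cell type markers in the results was not tested, and the leukocyte gene PTPRC did not exceed 0.133 CPM in any library. In bulk RNA, fewer cells of a type and less RNA per cell cannot be told apart. Mitochondrially encoded genes took 7.91 to 11.0% of counts in the knockdown libraries and 5.34 to 6.13% in the controls. Refitting without those genes changed no call among the 50 member values against the controls.

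Notch receptors are cut and activated when a ligand on a neighbouring cell, of the Delta-like or Jagged family, pulls on them. The released intracellular domain joins the DNA-binding protein RBPJ and a Mastermind coactivator at target genes, whose products include the repressors HES1 and HEY1 and the feedback inhibitor NRARP. NOTCH3 is known as a gene amplified or overexpressed in a share of serous ovarian carcinomas.

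The promoters of a pair of target genes are shown because those genes were called in opposite directions in siPAX8 and siDual. Each line gives the 250 bases before the RefSeq transcription start (GRCh38.p14), 5′ to 3′ on the gene's strand. For HES1 the window is chr3:194135898-194136147 on the plus strand, and capitals mark TGGGAA, the core letters that RBPJ binds. For NRARP it is chr9:137302272-137302521 on the minus strand, and capitals mark ATTGT, the reverse complement of the SOX core ACAAT.
HES1: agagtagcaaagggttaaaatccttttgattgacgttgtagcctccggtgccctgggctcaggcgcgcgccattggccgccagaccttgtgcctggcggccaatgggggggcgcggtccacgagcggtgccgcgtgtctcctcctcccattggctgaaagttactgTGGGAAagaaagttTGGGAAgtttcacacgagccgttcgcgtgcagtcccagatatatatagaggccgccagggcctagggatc
NRARP: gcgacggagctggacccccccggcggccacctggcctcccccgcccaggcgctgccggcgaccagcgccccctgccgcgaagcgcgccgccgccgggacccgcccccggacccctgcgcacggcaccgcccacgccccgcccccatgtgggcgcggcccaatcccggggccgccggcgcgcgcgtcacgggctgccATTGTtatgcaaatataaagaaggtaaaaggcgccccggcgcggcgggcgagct

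Both strands were searched in the 250-base windows of the 8 members that the promoter table holds, and of all 35116 promoters in it. HES1 was the member with TGGGAA, with 1 copy at -84 to -79 and another at -70 to -65 from its start site. At least 1 copy was present in 20.8% of all promoters and at least 2 copies in 2.90%. NRARP was the member with ACAAT, 1 copy at -54 to -50, against 24.6% of all promoters with at least 1. The NRARP match lies inside the run CATTGTTATGCAAAT, which joins a SOX core to the octamer ATGCAAAT of POU factors and is the textbook composite element of SOX2 and OCT4. That run was taken from the NRARP sequence after it had been seen, so NRARP had to hold it. Of the 35116 windows 1, that of NRARP itself, held it, and this count is therefore no test of how rare such a site is. ATGCAAAT was present in 1.63%. These are matches of letters and not measured binding.

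Levels were compared between genes as TPM, a transcript measure that divides by gene length. In the 4 control libraries NOTCH2 was the most abundant member at 47.1 ± 4.47 TPM (SD, n = 4), above MAML2 at 33.9 ± 1.10 and HES1 at 26.1 ± 2.21. NOTCH3 followed at 16.7 ± 1.80 TPM, then JAG2 at 11.6 ± 1.26, JAG1 at 11.4 ± 0.894 and NOTCH1 at 10.0 ± 0.466. The last 3 overlapped between neighbours in this order, and the other neighbours did not. NRARP at 6.53 ± 0.508 TPM, DLL1 at 3.35 ± 0.670 and HEY1 at 0.826 ± 0.0784 were the least abundant. The read counts behind these levels were 12403 to 21622 per library for NOTCH2 and 16 to 65 for HEY1 over all 14 libraries.

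**Figure D1:**
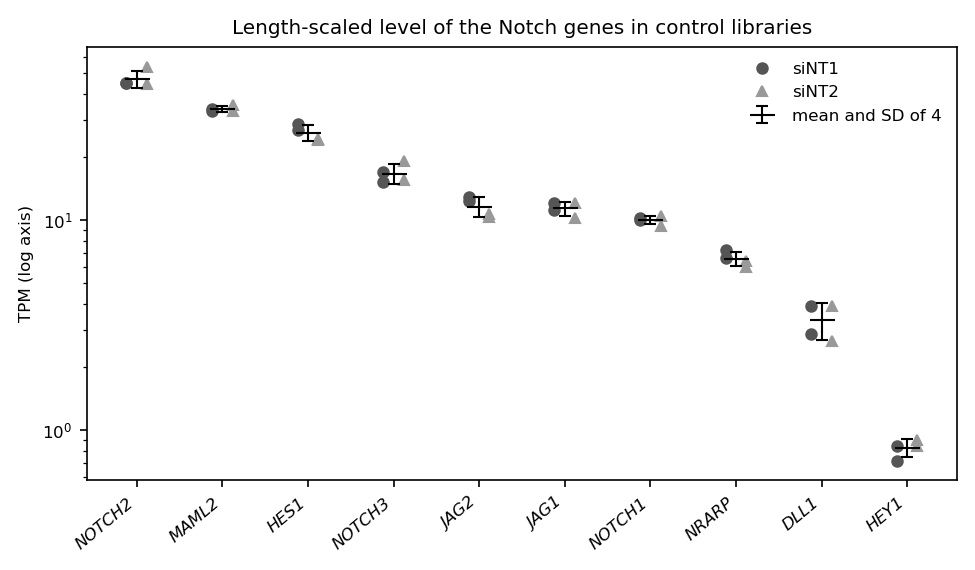
Level of each Notch gene in the control libraries, in TPM on a log axis, with siNT1 libraries as circles and siNT2 libraries as triangles. The bar and whiskers give the mean and SD of the 4 libraries, from NOTCH2 at 47.1 TPM down to HEY1 at 0.826 TPM.

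Most members changed where PAX8 or SOX17 was targeted, in libraries where a large share of all tested genes did so too. All values below are CPM after scaling of the libraries, and calls required an adjusted p below 0.05. Relative to the controls, siPAX8 had 4 of the 10 members higher and 4 lower, among 21032 tested genes of which 52.2% were called, 26.9% higher and 25.4% lower. In siSOX17, 3 were higher and 6 lower, against 52.6% of all genes, 27.2% higher and 25.5% lower. In siDual, 4 were higher and 6 lower, against 56.2%, with 28.9% higher and 27.3% lower. Fewer members were called in the other groups. In siMECOM, 1 was higher and 3 lower, against 32.6% of all genes, 16.5% higher and 16.1% lower. In siWT1, 3 were higher and 0 lower by edgeR, against 37.5%, with 17.7% higher and 19.8% lower, and without siWT1 replicate 2 only 1 was called. The 4 members with an unadjusted p under 0.05 in siWT1 were these 3 and NOTCH2, which had 289.7 and 255 CPM (-0.17 ± 0.08, adjusted p = 0.0918). NOTCH2 in siWT1 was called with siNT2 as the only control (-0.25, adjusted p = 0.0382) and without siWT1 replicate 1 (-0.27, 0.0477). The median log2 fold change of the members was -0.17 in siPAX8, -0.68 in siSOX17, -0.41 in siDual, -0.27 in siMECOM and 0.07 in siWT1, and over all genes it lay between -0.01 and 0.01. Scaling by total counts in place of TMM factors moved the split of calls over all genes to 4581 higher and 6508 lower in siPAX8 (main scaling 5653 and 5336). It gave 3996 and 7558 in siSOX17 (main scaling 5716 and 5353), 4582 and 7724 in siDual (6075 and 5739), 4068 and 2645 in siMECOM (3467 and 3390), and 4928 and 3319 in siWT1 (3713 and 4171). The median of all genes moved to -0.17 in siSOX17 and -0.16 in siDual under that scaling. The 5 contrasts share the control libraries, so their values stand side by side here and are not independent of each other.

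**Figure D2:**
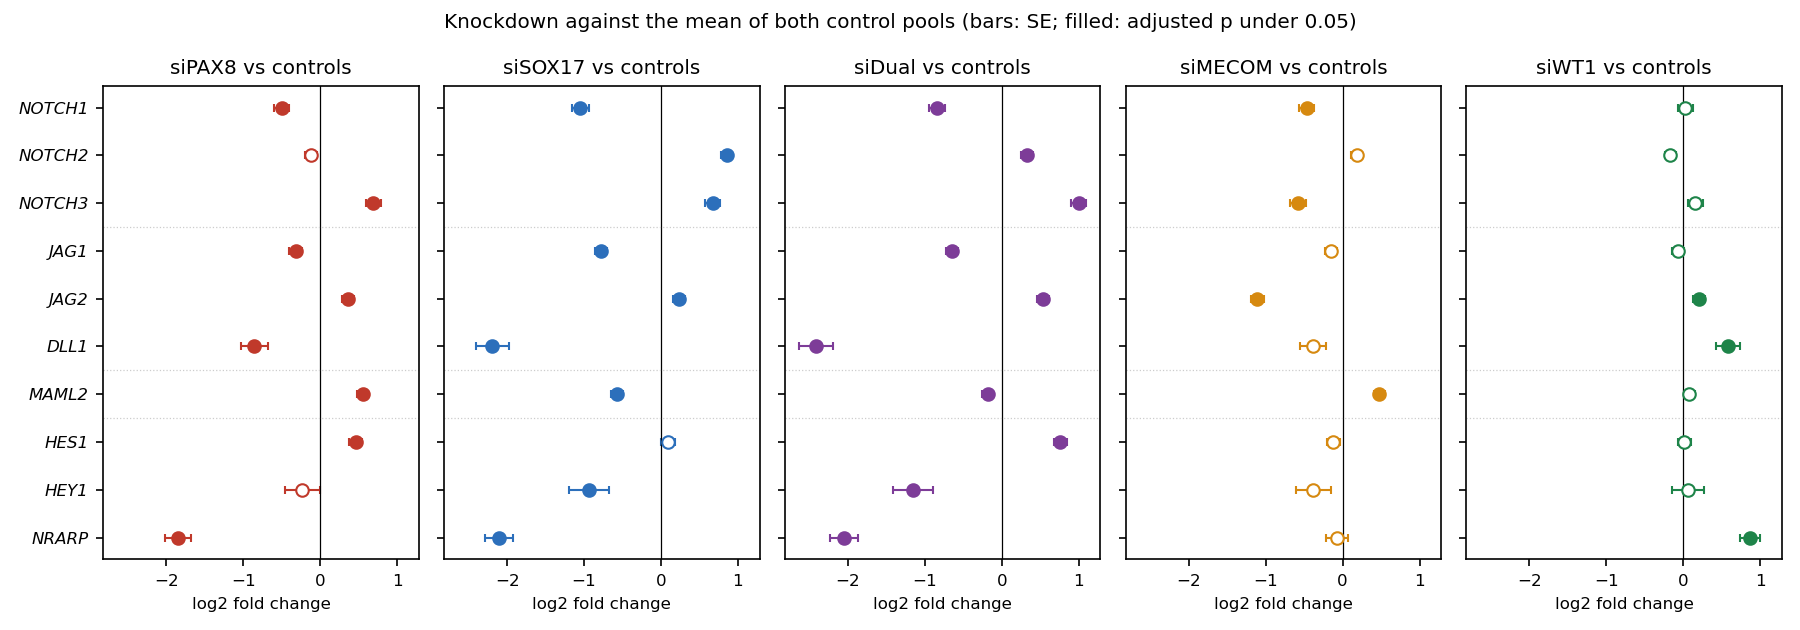
Log2 fold change of each member in each knockdown group against the mean of the siNT1 and siNT2 groups, with bars for the SE and filled points where the adjusted p was under 0.05. NRARP and DLL1 lie farthest to the left in siSOX17 and siDual, and to the right in siWT1, while JAG2 lies farthest to the left in siMECOM.

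The receptors moved apart from each other. NOTCH1 (ENSG00000148400.9, chromosome 9 at 136494444 to 136545862 of hg38, minus strand), the receptor best known from T cell leukaemia, was lower in 4 of the 5 knockdown groups. It had 24.1 and 30.2 CPM in siPAX8, 16.1 and 21.1 in siSOX17, 21.1 and 21.8 in siDual and 26.8 and 28.7 in siMECOM, against 38.2 and 38.6 in siNT1 and 38.8 and 37.9 in siNT2. None of these 8 knockdown libraries reached the lowest control. The log2 fold changes were -0.50 ± 0.10 in siPAX8 (SE, adjusted p = 0.000349), -1.05 ± 0.11 in siSOX17 (1.01e-07), -0.84 ± 0.10 in siDual (1.13e-06) and -0.47 ± 0.10 in siMECOM (0.00136), from the quasi-likelihood test of edgeR, adjusted by Benjamini and Hochberg over all tested genes, as for every adjusted p here. The siWT1 libraries, at 36.6 and 41.5 CPM, lay on either side of the controls (0.02 ± 0.10, 95% interval -0.18 to 0.23).

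NOTCH2 (ENSG00000134250.19, chromosome 1 at 119911553 to 120069626, minus strand), the receptor with the highest level in this line, went the other way in siSOX17. Its libraries stood at 534 and 574 CPM in siSOX17 and at 388 and 379.8 in siDual, against 294 and 287 in siNT1 and 339 and 307 in siNT2. These 4 knockdown libraries were all above the highest control. In TPM this held for siSOX17, at 61.43 to 66.05, but siDual, at 42.1 to 42.32, lay below every control (44.74 to 53.84). The siPAX8 libraries, at 30.17 to 37.77 TPM, and the siWT1 libraries, at 37.64 to 41.69, also lay below every control. Those of siMECOM, at 46.1 to 52.39 TPM, lay within the control range. The log2 fold change was 0.85 ± 0.07 in siSOX17 (adjusted p = 1.28e-08) and 0.33 ± 0.08 in siDual (0.00107), and the siDual value was 0.17 without a call when libraries were scaled by total counts alone (adjusted p = 0.0747). In siPAX8, at 263 and 301 CPM, no change was called (-0.12 ± 0.08, adjusted p = 0.215, 95% interval -0.28 to 0.04), though total counts gave -0.21 with a call (0.0332). The siMECOM libraries, at 339.6 and 355 CPM, were narrowly above every control without passing the test (0.18 ± 0.08, adjusted p = 0.0749), which they passed in 4 of 24 refits (adjusted p = 0.0303 to 0.0489). Partial copies of NOTCH2 in the NOTCH2NL genes can share its reads. NOTCH2NLA, the copy matched in the table, held 1.58% as many counts as NOTCH2 and was higher in siPAX8 (0.61 ± 0.15), siSOX17 (0.96 ± 0.15) and siDual (0.74 ± 0.15), so the reads of these genes may not be fully separated.

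NOTCH3 (ENSG00000074181.8, chromosome 19 at 15159038 to 15200981, minus strand) rose where PAX8 or SOX17 was targeted and fell where MECOM was. It reached 104 and 91.5 CPM in siPAX8, 95.5 and 97.6 in siSOX17 and 137 and 105 in siDual, against 61.5 and 54.1 in siNT1 and 67.5 and 59.7 in siNT2. The siMECOM libraries had 44.4 and 36.7 CPM. The knockdown and control libraries did not overlap in any of these 4 groups. Log2 fold changes were 0.69 ± 0.10 in siPAX8 (adjusted p = 7.94e-06), 0.67 ± 0.10 in siSOX17 (1.10e-05), 1.00 ± 0.10 in siDual (4.74e-08) and -0.58 ± 0.10 in siMECOM (0.000258). Set directly against each other, siMECOM was lower than siPAX8, with a log2 difference of -1.27 ± 0.12 (adjusted p = 4.19e-08), and lower than siSOX17, with -1.25 ± 0.12 (5.50e-08). In siWT1 NOTCH3 had 68.0 and 66.9 CPM and was not called (0.15 ± 0.10, adjusted p = 0.24).

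**Figure D3:**
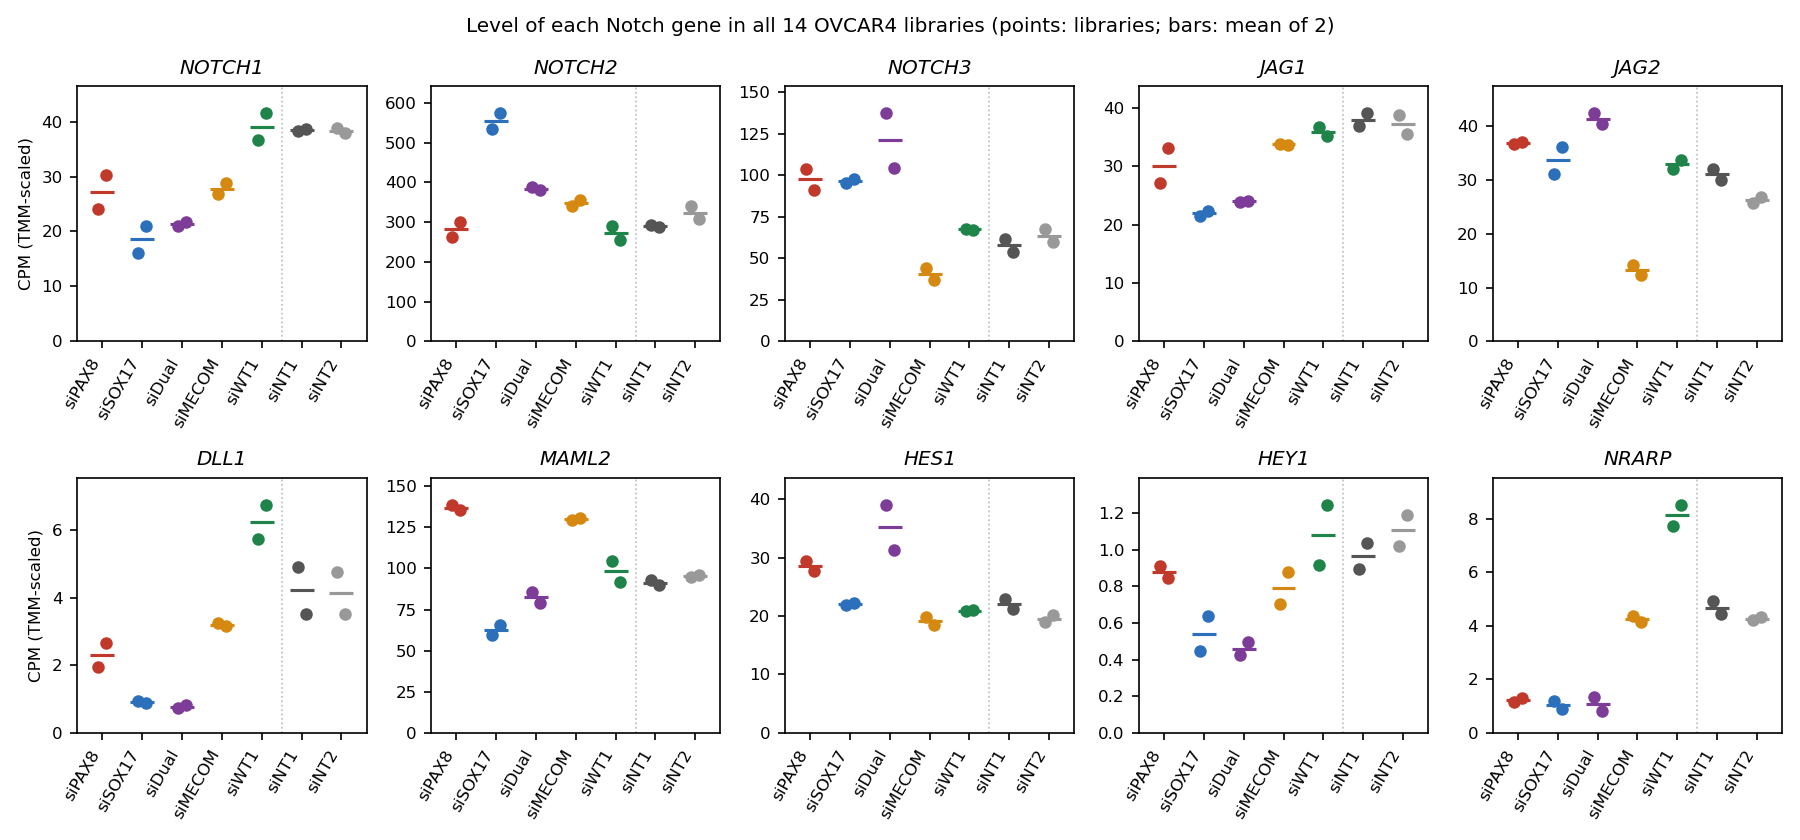
CPM of each member in all 14 libraries, with a point for each library and a bar for the mean of the 2 libraries of a group, knockdown groups left of the dotted line and control groups right of it. The siPAX8, siSOX17 and siDual libraries sit below every control for NRARP and DLL1 and above every control for NOTCH3, and JAG2 is lowest in siMECOM, at 14.2 and 12.3 CPM.

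Among the ligands, DLL1 showed the largest change. DLL1 (ENSG00000198719.8, chromosome 6 at 170282206 to 170306565, minus strand) is a Delta-like ligand that signals to receptors on neighbouring cells. It had 1.95 and 2.65 CPM in siPAX8, 0.945 and 0.875 in siSOX17 and 0.745 and 0.810 in siDual, against 4.90 and 3.52 in siNT1 and 4.75 and 3.52 in siNT2. All 6 libraries lay below the lowest control, and the siSOX17 and siDual libraries lay below those of siPAX8. In siPAX8 the log2 fold change was -0.86 ± 0.18 (adjusted p = 0.000416). In siSOX17 it was -2.19 ± 0.21 (6.52e-08), which is 0.219 times the control level, and in siDual -2.41 ± 0.22 (1.73e-08). The difference between the single knockdowns was itself called, with siPAX8 above siSOX17 by 1.33 ± 0.25 on the log2 scale (adjusted p = 0.000288).

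DLL1 was higher in siWT1, at 5.73 and 6.74 CPM, both above the highest control library. The log2 fold change of 0.58 ± 0.15 (adjusted p = 0.00528) became 0.46 without siWT1 replicate 2 and lost its call (0.0923). In siMECOM DLL1 had 3.24 and 3.16 CPM, below every control, with a log2 fold change of -0.38 ± 0.17 that did not pass (adjusted p = 0.0872). It passed on leaving out siNT1 replicate 2 (-0.50, adjusted p = 0.033) or siNT2 replicate 2 (-0.51, 0.0264) and with no filter on low counts (-0.42, 0.0315). The range over the control libraries of this gene, 3.52 to 4.90 CPM rested on 160 to 237 reads per library.

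In CPM, the Jagged ligands, which also activate Notch receptors from neighbouring cells, were called in opposite directions where PAX8 or SOX17 was targeted. The JAG2 call in siSOX17 was lost in 5 of 24 refits. JAG1 (ENSG00000101384.11, chromosome 20 at 10637684 to 10674107, minus strand) had 27.1 and 33.0 CPM in siPAX8, 21.5 and 22.3 in siSOX17 and 23.8 and 24.1 in siDual, against 36.9 and 39.0 in siNT1 and 38.7 and 35.5 in siNT2. All 6 were below the controls. The log2 fold change was -0.78 ± 0.08 in siSOX17 (adjusted p = 2.03e-07) and -0.65 ± 0.08 in siDual (1.53e-06). The smaller decrease in siPAX8 (-0.32 ± 0.08, adjusted p = 0.00232) was -0.19 without siPAX8 replicate 1 and then did not pass (0.113). JAG1 was not called in siMECOM, at 33.8 and 33.6 CPM (-0.16 ± 0.08, adjusted p = 0.144), though both libraries lay below every control. Nor was JAG1 called in siWT1, at 36.6 and 35.1 CPM (-0.07 ± 0.08, adjusted p = 0.541). The antisense transcript AL050403.2 shares 79 exon bases with JAG1 and held 3% as many counts.

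JAG2 (ENSG00000184916.8, chromosome 14 at 105140981 to 105168824, minus strand) was the member most affected by the MECOM pool. It had 14.2 and 12.3 CPM in siMECOM, against 32.1 and 30.1 in siNT1 and 25.8 and 27.0 in siNT2. This was 0.463 times the control level, a log2 fold change of -1.11 ± 0.09 (adjusted p = 8.37e-09). In siPAX8 it stood at 36.7 and 37.1 CPM and in siDual at 42.4 and 40.5, both groups above every control. These were called at 0.37 ± 0.08 (adjusted p = 0.000555) and 0.54 ± 0.08 (8.00e-06). In TPM both groups lay within the control range of 10.32 to 12.93, at 11.04 to 12.22 in siPAX8 and 11.86 to 12.11 in siDual. In siSOX17, at 9.44 to 10.94 TPM, JAG2 overlapped the controls, its mean of 10.19 lying below theirs of 11.6. The direct contrasts gave log2 differences of -1.48 ± 0.10 for siMECOM against siPAX8 (adjusted p = 2.50e-10) and -1.35 ± 0.10 for siMECOM against siSOX17 (1.12e-09).

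The other JAG2 calls depended on the controls and libraries used. Both siNT1 libraries of JAG2 were above those of siNT2, by 0.24 ± 0.09 on the log2 scale (adjusted p = 0.523). The call in siSOX17, at 31.2 and 36.2 CPM (0.23 ± 0.08, adjusted p = 0.0176), overlapped the controls. With siNT1 as the only control it was 0.12 (adjusted p = 0.312), without siSOX17 replicate 2 it was 0.13 (0.329), and by total counts alone 0.07 (0.488). It also did not pass without siNT1 replicate 2 (0.21, adjusted p = 0.0563) or with no filter on low counts (0.22, 0.0561). The call in siWT1, at 32.2 and 33.9 CPM (0.21 ± 0.08, adjusted p = 0.0444), was lost in 11 of 24 refits, among them siNT1 alone (0.09, 0.499). JAG2 shares 469 exon bases with the transcript AL512356.1 on the same strand, which held 36.2% as many counts. That transcript was also lower in siMECOM (-0.62 ± 0.11, adjusted p = 0.000262) and higher in siPAX8 (0.45 ± 0.10, 0.00111), so reads of the pair may not be fully separated.

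MAML2 (ENSG00000184384.13, chromosome 11 at 95976598 to 96343180, minus strand), a Mastermind coactivator of the Notch nuclear complex, separated the PAX8 and SOX17 pools. It had 139 and 135 CPM in siPAX8 and 129.5 and 131 in siMECOM, but 59.7 and 65.8 in siSOX17, against 93.1 and 89.7 in siNT1 and 94.6 and 96.1 in siNT2. The first 4 libraries were above every control and the siSOX17 pair below every control. The log2 fold changes were 0.55 ± 0.07 in siPAX8 (adjusted p = 1.45e-06), 0.48 ± 0.07 in siMECOM (2.52e-05) and -0.57 ± 0.07 in siSOX17 (1.99e-06). The direct difference of siPAX8 from siSOX17 was 1.13 ± 0.08 (adjusted p = 3.13e-09), or 2.18-fold. In siDual MAML2 lay between the single knockdowns, at 85.8 and 78.9 CPM, with -0.73 ± 0.08 against siPAX8 (adjusted p = 2.67e-06) and 0.39 ± 0.08 against siSOX17 (0.00245), the second being 0.32 without siSOX17 replicate 1 and then not called (0.0512). Its small decrease in siDual against the controls (-0.18 ± 0.07, adjusted p = 0.0369) did not pass with siNT1 alone (-0.15, 0.133) or without siDual replicate 2 (-0.12, 0.312), siNT1 replicate 1 (-0.17, 0.0833) or siNT2 replicate 1 (-0.19, 0.0513). In siWT1 no change was called (0.08 ± 0.07, adjusted p = 0.427). MIR1260B lies within a MAML2 exon on the opposite strand and held 2.86% as many counts.

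The target genes split. NRARP (ENSG00000198435.3, chromosome 9 at 137300482 to 137302251, minus strand) encodes an ankyrin-repeat protein that is induced by Notch and destabilises the Notch intracellular domain. Its libraries stood at 1.17 and 1.31 CPM in siPAX8, 1.19 and 0.875 in siSOX17 and 1.36 and 0.833 in siDual, against 4.93 and 4.44 in siNT1 and 4.23 and 4.31 in siNT2. The highest of these 6 knockdown libraries was well under the lowest control. Its log2 fold change was -1.85 ± 0.17 in siPAX8 (adjusted p = 3.33e-08), -2.10 ± 0.19 in siSOX17 (1.59e-08) and -2.05 ± 0.18 in siDual (1.37e-08). These are 0.278, 0.233 and 0.242 times the control level. The siPAX8 and siSOX17 libraries overlapped, and their difference was not called (0.26 ± 0.24, adjusted p = 0.432, 95% interval -0.24 to 0.75).

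NRARP was higher in siWT1 and not called in siMECOM. In siWT1 it had 7.74 and 8.52 CPM, above every control, a log2 fold change of 0.86 ± 0.13 (adjusted p = 3.85e-05), or 1.82-fold. In siMECOM it had 4.38 and 4.15 CPM and was not called (-0.07 ± 0.14, adjusted p = 0.759, 95% interval -0.36 to 0.23). Set directly against siPAX8, siWT1 was higher by 2.71 ± 0.18 (adjusted p = 3.07e-10) and siMECOM by 1.78 ± 0.19 (2.80e-07). Of the members, NRARP had the widest range of group means, 2.94 on the log2 scale, and DLL1 a range of 2.93, both highest in siWT1.

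HES1 (ENSG00000114315.3, chromosome 3 at 194136145 to 194138732, plus strand) encodes the basic helix-loop-helix repressor regarded as the standard Notch target. It did not follow NRARP. It stood at 29.5 and 27.7 CPM in siPAX8 and 39.1 and 31.4 in siDual, against 22.9 and 21.1 in siNT1 and 18.9 and 20.2 in siNT2. Both groups were above every control, and the log2 fold changes were 0.46 ± 0.09 (adjusted p = 0.000142) and 0.76 ± 0.08 (2.64e-07). In TPM both groups overlapped the controls, at 27.54 to 28.25 in siPAX8 and 28.51 to 34.57 in siDual, against 23.99 to 28.71. In siSOX17, at 21.9 and 22.3 CPM, HES1 overlapped the controls (0.09 ± 0.09, adjusted p = 0.41, 95% interval -0.09 to 0.27). The libraries of siMECOM, at 19.8 and 18.5 CPM (-0.12 ± 0.09, adjusted p = 0.33), and of siWT1, at 20.8 and 21.0 CPM (0.01 ± 0.09, adjusted p = 0.937), overlapped them too. In TPM, however, siSOX17, at 20.57 to 20.91, and siMECOM, at 21.87 to 22.27, lay below every control. The siWT1 libraries, at 24.43 to 25.26 TPM, lay within the control range.

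HEY1 (ENSG00000164683.16, chromosome 8 at 79764010 to 79767863, minus strand), a related repressor, was near the detection limit. It had 0.448 and 0.637 CPM in siSOX17 and 0.426 and 0.495 in siDual, against 0.896 and 1.04 in siNT1 and 1.02 and 1.19 in siNT2. Those 4 knockdown libraries, of 16 to 24 reads each, were below every control. The log2 fold changes were -0.93 ± 0.26 in siSOX17 (adjusted p = 0.00495) and -1.16 ± 0.26 in siDual (0.000938). The first was -0.70 without siSOX17 replicate 1 and then did not pass (adjusted p = 0.0975). It was not called in siPAX8, at 0.913 and 0.847 CPM (-0.23 ± 0.23, adjusted p = 0.412, 95% interval -0.70 to 0.24). Nor was it in siMECOM, at 0.704 and 0.877 CPM (-0.38 ± 0.23, adjusted p = 0.219), or in siWT1, at 0.914 and 1.24 CPM (0.06 ± 0.21, adjusted p = 0.847, 95% interval -0.38 to 0.51). Both siMECOM libraries, though uncalled, lay below every control.

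Joining the PAX8 and SOX17 pools did not add up for 4 members. Non-additivity was the siDual log2 fold change minus the sum of those of siPAX8 and siSOX17, and 25.1% of all genes were called for it, 12.0% higher and 13.0% lower (2530 and 2740 genes, or 3550 and 2042 when scaled by total counts). NRARP stood farthest from the sum, 1.90 ± 0.30 above it (adjusted p = 0.000113, 95% interval 1.27 to 2.54). Its siDual level did not differ by test from siPAX8 (-0.20 ± 0.23, adjusted p = 0.618) or siSOX17 (0.06 ± 0.25, 0.919). NOTCH1 was 0.71 ± 0.16 above the sum (adjusted p = 0.00228) and JAG1 0.45 ± 0.12 above it (0.0109). For these 3 genes, which fell in both single knockdowns, siDual thus fell by less than the sum. NOTCH2 departed from the sum by -0.41 ± 0.12 (adjusted p = 0.0127), its siDual level lying between those of the single knockdowns. The JAG1 value was 0.32 without siPAX8 replicate 1 and then did not pass (adjusted p = 0.0866). The NOTCH2 value did not pass in 5 refits, at -0.31 to -0.40. Both targets stood higher in siDual than in their single knockdown, PAX8 at 25.2% against 17.4% of control and SOX17 at 15.2% against 13%. The part of this difference in the departures was not tested.

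For the other 6 members no departure from the sum was called. DLL1 was 0.63 ± 0.35 above it (adjusted p = 0.205, 95% interval -0.10 to 1.36), and NOTCH3 departed by -0.36 ± 0.15 (adjusted p = 0.0922). The NOTCH3 value was called with no filter on low counts (-0.38, adjusted p = 0.0185), with the replicate block (-0.37, 0.0182) and without siDual replicate 1 (-0.57, 0.0113). JAG2, MAML2, HES1 and HEY1 had values of -0.07 ± 0.12, -0.16 ± 0.11, 0.21 ± 0.13 and 0.01 ± 0.43.

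**Figure D4:**
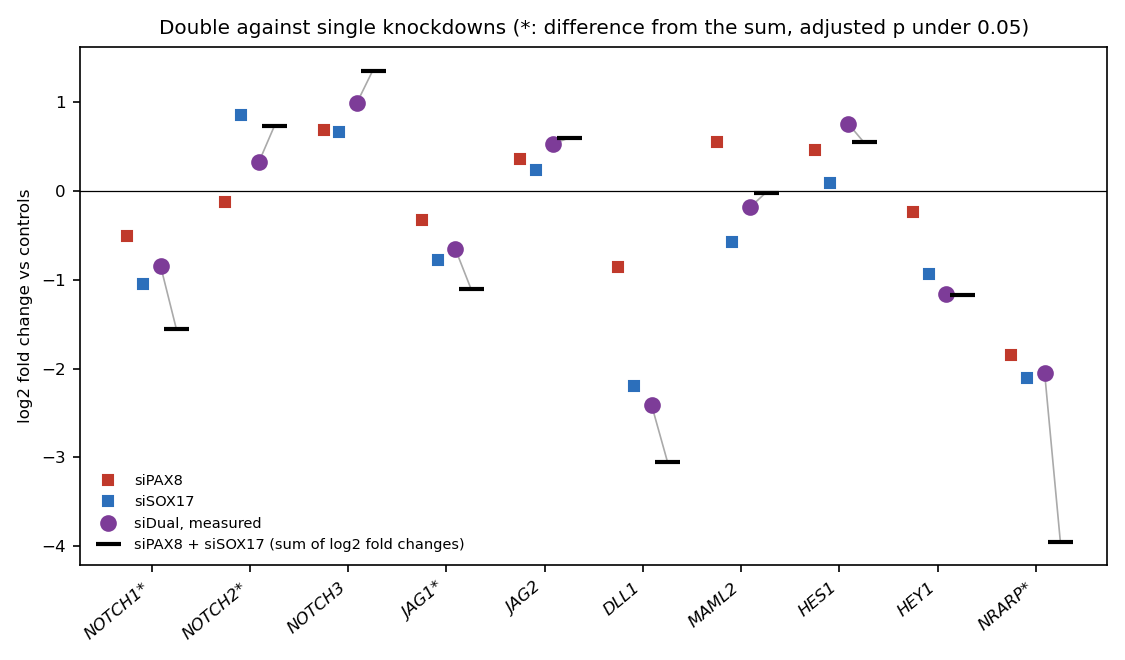
Log2 fold change against the controls for each member in siPAX8, siSOX17 (squares) and siDual (circles), with a black dash at the sum of the siPAX8 and siSOX17 values. A star marks the 4 members whose siDual value differed from the sum, with NRARP 1.90 from it on the log2 scale.

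Against siPAX8, siDual had 2 members higher and 5 lower, where 19.6% of all genes were called, 11.0% higher and 8.55% lower. Against siSOX17 it had 3 higher and 1 lower, where 15.7% were called, 7.85% higher and 7.82% lower. DLL1 was lower in siDual than in siPAX8 (log2 difference -1.56 ± 0.25, adjusted p = 0.000183) and not called against siSOX17 (-0.22 ± 0.30, adjusted p = 0.689). HES1 was higher in siDual than in siSOX17 by 0.67 ± 0.10 (adjusted p = 9.79e-05). Its excess over siPAX8 (0.30 ± 0.10, adjusted p = 0.0374) was lost in 8 of 22 refits. The 7 calls against siPAX8 were 3 without siPAX8 replicate 2 or siDual replicate 1, and the 4 against siSOX17 were 2 without siSOX17 replicate 1.

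The single knockdowns differed from each other in many members. Between siPAX8 and siSOX17 6 members were called, against 37.3% of all genes, 17.6% higher and 19.8% lower. NOTCH1 (0.55 ± 0.12), JAG1 (0.46 ± 0.09), DLL1, HES1 (0.37 ± 0.10) and MAML2 were higher in siPAX8, and NOTCH2 was lower in it (-0.97 ± 0.09, adjusted p = 5.89e-08). The HES1 difference was 0.32 without siPAX8 replicate 1 and then did not pass (adjusted p = 0.0616). Between siMECOM and siSOX17 8 members were called, 5 higher and 3 lower, against 48.4% of all genes, 24.5% higher and 23.9% lower. Between siMECOM and siPAX8 2 were higher and 3 lower, against 47.1%, 24.0% higher and 23.1% lower. DLL1 was higher in siMECOM than in siSOX17 by 1.81 ± 0.24 (adjusted p = 4.12e-06) and NRARP by 2.04 ± 0.20 (1.12e-07). Between siWT1 and siPAX8 4 were higher and 3 lower, against 57.4% of all genes, 27.8% higher and 29.5% lower. Between the control pools 0 of 10 members were called by edgeR and 0 by DESeq2, with 1 at an unadjusted p under 0.05, and 0.300% of all genes were called, 0.242% higher and 0.0571% lower in siNT1.

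Other genes of the pathway were taken from a list by role. Of its 65 genes, 60 passed the filter on low counts. In siPAX8 18 of the 60 were higher and 21 lower (52.2% of all tested genes were called in either direction), and in siSOX17 21 and 19 (52.6%). In siDual 20 were higher and 24 lower (56.2%), in siMECOM 12 and 10 (32.6%), and in siWT1 14 and 12 (37.5%). The calls in siMECOM, 22 in all, were 14 without siMECOM replicate 1 and 12 without its replicate 2, and the 26 in siWT1 were 17 without siWT1 replicate 2. Their median log2 fold changes, -0.03, -0.03, -0.01, 0.07 and 0.05 in that order, were near the medians of all genes.

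By role, the receptor proteases, a class that includes subunits of a protease complex, had most members higher by count in siPAX8, siSOX17 and siDual. This was not so in siMECOM or siWT1. In siPAX8 7 of 9 were higher and 0 lower (26.9% of all genes were higher), in siSOX17 6 and 1 (27.2%), and in siDual 7 and 1 (28.9%). FURIN, the convertase that cleaves the receptor precursor, had 144 CPM in siPAX8, against 72.4 in the controls (log2 fold change 0.99 ± 0.07, adjusted p = 2.74e-10), and was also higher in siSOX17 (0.39 ± 0.07) and siDual (0.88 ± 0.07). In siMECOM 2 of the 9 were higher and 3 lower, among them ADAM10, which sheds the receptor ectodomain, at 53.8 CPM against 87.8 in the controls (-0.70 ± 0.11, adjusted p = 3.91e-05). In siWT1 1 was higher and 1 lower, FURIN being the lower one (-0.72 ± 0.07). The HES and HEY relatives, of which 6 were tested, leaned the other way where PAX8 or SOX17 was targeted. Of these 1 was higher and 3 lower in siPAX8 (25.4% of all genes were lower). In siSOX17 0 were higher and 4 lower (25.5%), and in siDual likewise 0 and 4 (27.3%). Some of these calls were near the floor. HES7 had 0 CPM in siSOX17 against 0.104 in the controls. HEY2 had 0.848 CPM in siPAX8, 0.0895 in siSOX17 and 0.210 in siDual, against 0.405 in the controls. In siMECOM 1 was higher and 1 lower (16.5% and 16.1% of all genes), and in siWT1 2 and 0 (17.7% and 19.8%). Other known targets had 4 of 6 higher and 1 lower in siSOX17, the same share higher as the proteases there. They had 2 and 4 in siPAX8 and 1 and 3 in siDual.

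LFNG, the Fringe sugar transferase that alters which ligands a receptor answers to, was higher in 4 groups. It had 7.05 CPM in siPAX8, 9.35 in siSOX17, 8.67 in siDual and 11.5 in siMECOM, against 3.83 in the controls. The largest log2 fold change was 1.59 ± 0.13 in siMECOM (adjusted p = 2.51e-08). CDKN1A, the cell cycle inhibitor p21 and a reported Notch target, was higher in the same 4 groups, with 2.26 ± 0.10 in siDual. DTX4, a Deltex ubiquitin ligase, was higher in siSOX17 (1.22 ± 0.08), siDual (0.78 ± 0.08) and siMECOM (0.40 ± 0.08). The related DTX3L was lower in siPAX8 (-1.16 ± 0.08) and siDual (-0.74 ± 0.08) and higher in siSOX17 (0.19 ± 0.07) and siWT1 (0.23 ± 0.07).

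Of 9 co-repressors of RBPJ target genes, 5 were lower in siPAX8, siSOX17 and siDual each (25.4%, 25.5% and 27.3% of all genes were lower). Those higher numbered 3, 2 and 3 (26.9%, 27.2% and 28.9% of all genes). In siMECOM 2 were higher and 2 lower (16.5% and 16.1%), and in siWT1 4 and 2 (17.7% and 19.8%). The co-repressor CTBP1 was lower in siPAX8 (-0.35 ± 0.08), siSOX17 (-0.72 ± 0.08), siDual (-0.52 ± 0.08) and siWT1 (-1.34 ± 0.08). TLE2, a Groucho co-repressor, was lower in siPAX8 (-1.26 ± 0.20), siSOX17 (-0.73 ± 0.20), siDual (-1.02 ± 0.20) and siMECOM (-0.99 ± 0.20) and higher in siWT1 (0.60 ± 0.17). The related TLE3 was higher in all 5 knockdown groups, by 0.37 ± 0.11 in siPAX8, 0.65 ± 0.11 in siSOX17, 0.76 ± 0.11 in siDual, 0.73 ± 0.11 in siMECOM and 0.75 ± 0.11 in siWT1. NEURL1B, a ligand ubiquitin ligase, was lower in siWT1 (-2.08 ± 0.12) and higher in siSOX17 (0.68 ± 0.09) and siDual (0.88 ± 0.09). The ligand DLL3 was higher in siMECOM (0.30 ± 0.10) and siWT1 (0.57 ± 0.10) and lower in siSOX17 (-0.40 ± 0.11). RBPJ itself, at 37.6 CPM in the controls, was higher in siSOX17 (0.55 ± 0.07), siDual (0.60 ± 0.07) and siWT1 (0.31 ± 0.07), and is named here after its values were seen. In the nuclear complex the acetyltransferase CREBBP was lower in siPAX8 (-0.57 ± 0.08), siSOX17 (-0.73 ± 0.09), siDual (-1.07 ± 0.09) and siWT1 (-0.27 ± 0.08). HES6, known to oppose HES1, was lower in siPAX8 (-1.05 ± 0.21), siSOX17 (-1.17 ± 0.22) and siDual (-1.14 ± 0.22).

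**Figure D5:**
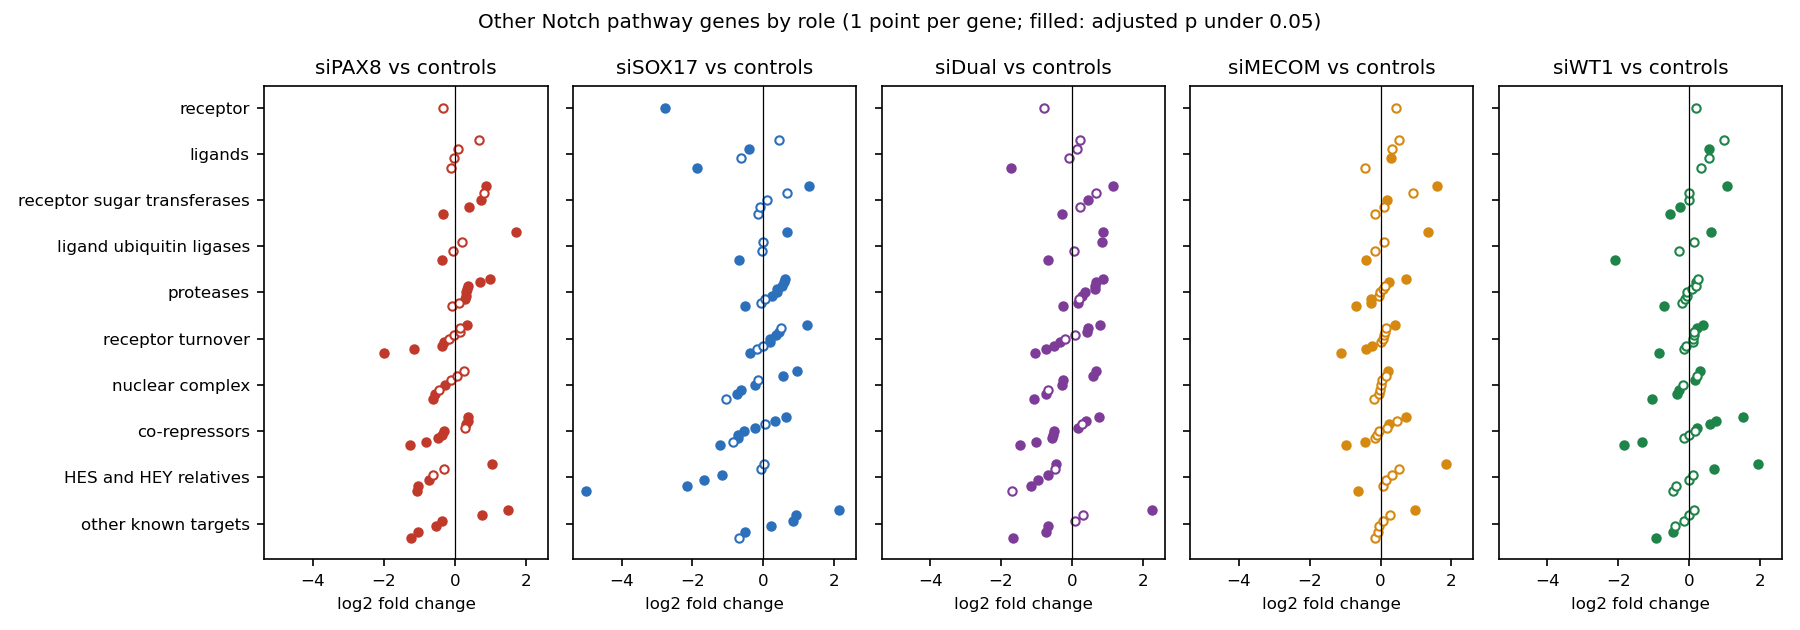
Log2 fold change against the controls of the other Notch pathway genes that were tested, grouped by role, with a point for each gene and filled points where the adjusted p was under 0.05. Most protease points lie to the right of 0 in siPAX8, siSOX17 and siDual, and the co-repressors spread to both sides in every group.

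Genes with a pattern like that of the 3 members of widest range were named by Pearson's r of log2 CPM over the 14 libraries, among 11910 protein-coding genes. The libraries fall into groups, so r describes shared group levels and carries no test. Closest to NRARP were LZTS2 (r = 0.98), MTFP1 (0.98) and C11orf98 (0.98). MTFP1 had 12.1 CPM in siPAX8, 11.8 in siSOX17 and 33.2 in siWT1, against 27.2 in the controls. Close to DLL1 were SOWAHA (0.98) and PAXIP1 (0.97). SOWAHA had 4.15 CPM in siSOX17 and 17.8 in siWT1, against 11.6 in the controls. Closest to JAG2 were SLC35C1 (0.96), PDE8A (0.96) and USP47 (0.95), and SLC35C1 had 6.91 CPM in siMECOM against 24.0 in the controls.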

How the data were processed

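RNA was sequenced from 14 OVCAR4 libraries. The deposited table holds whole-number counts per gene from the authors, made with STAR 2.5.1b and featureCounts 1.6.3 on hg38, per the submitters' processing notes. Annotation and strand setting are not given in the sources used here. The gene length in the same table is another value deposited by the authors, used for TPM. Gene names came from GENCODE 29, matched by ID for 57878 of 58219 genes.

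Genes were filtered with filterByExpr (minimum count 10, total 15), scaled by TMM and fitted in edgeR 4.0.16 (R 4.3.3) with 1 coefficient per group over all 14 libraries, leaving 7 residual degrees of freedom. Controls were the mean of siNT1 and siNT2. Adjusted p-values are Benjamini-Hochberg over 21032 genes, called under 0.05, and the SE is the log2 fold change over the root of F. The fit was also run on simulated data, but the outcome is not reported here, so nothing above rests on it. Libraries of a group differed beyond sampling noise (chi-square per degree of freedom 9.84 to 19.2), so none was a copy of the other. This cannot tell separate transfections from separate libraries of the same RNA. Alternatives were DESeq2 1.42.0, other scalings, filters and controls, a replicate block and leaving out each library.

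Other pathway genes were named as the 3 highest and 3 lowest called log2 fold changes per knockdown above a mean log2 CPM of 1, and similar genes as the 3 highest r. Some genes that these rules name are not reported here. The members and lists were chosen with earlier results of these data known. Promoter sequences are from RefSeq (GRCh38.p14), and 8 of the 10 members matched.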

Additional observations from a re-analysis of the deposited data

Results flagged for a closer look

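In 4 members the effect of targeting PAX8 differed between cells with and without the SOX17 pool, by the interaction test that gives the departure of siDual from the sum of siPAX8 and siSOX17. The departures on the log2 scale were 0.71 for NOTCH1 (adjusted p = 0.00228), 0.45 for JAG1 (0.0109), 1.90 for NRARP (0.000113) and -0.41 for NOTCH2 (0.0127), by edgeR's quasi-likelihood test, and 25.1% of all tested genes were called in it. NOTCH1, JAG1 and NRARP were below every control library in all 6 libraries of these 3 groups. PAX8 stood at 25.2% of its control level in siDual and at 17.4% in siPAX8. SOX17 stood at 15.2% in siDual and at 13% in siSOX17, so the sum rests on deeper knockdowns than siDual had. Whether this difference, or a siRNA dose that differs between siDual and the single pools, moves with these values was not tested.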

How the results depend on the processing

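Over 24 refits of the 50 member values against the controls, none of the 34 called values changed sign, and 27 kept their call in every refit. Over all 13 comparisons 57 of 75 called values did. The cause of the changes below was not tested. Leaving out 1 library at a time gave 1 to 3 called members in siWT1 (1 without siWT1 replicate 2), 3 to 7 between siDual and siPAX8, and 2 to 4 between siDual and siSOX17. Counts over all genes were then 4096 to 7044 in siMECOM (6857 with all libraries, fewest without siMECOM replicate 2), 2636 to 4220 between siDual and siPAX8 (4115, fewest without siDual replicate 1), 1822 to 3355 between siDual and siSOX17 (3297, fewest without siDual replicate 2) and 11 to 77 between siNT1 and siNT2 (63, fewest without siNT1 replicate 1). Other pathway genes called were 12 to 22 in siMECOM and 17 to 26 in siWT1. Between siNT1 and siNT2 DESeq2 called 150 genes, and the fit with no filter on low counts called 232.

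With the replicate number as a block, the count between siNT1 and siNT2 was 150, members called numbered 8 in siPAX8, 9 in siSOX17, 10 in siDual, 4 in siMECOM and 3 in siWT1, and between siDual and siPAX8 8. The block also called NOTCH3 between siDual and siPAX8 (0.31, adjusted p = 0.0135) and between siDual and siSOX17 (0.31, 0.0138), and HEY1 between siPAX8 and siSOX17 (0.71, 0.0467). Same-numbered libraries deviated together with r of -0.02 to 0.16 over 21 pairs of groups, 20 of them positive and 7 over 0.1. The labels do not say what a shared number means, and the main fit did not pair the samples by number. Over all genes the block gave more calls than the main fit in every comparison, such as 11538 against 10989 in siPAX8. That not every r was over 0.1 is no test of a batch shared by same-numbered libraries. Whether there was such a batch was not tested. Under the block 2 uncalled values changed sign, HEY1 non-additivity (-0.007) and NOTCH1 between siNT1 and siNT2 (-0.001).

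The other changes of sign were also in uncalled log2 values. With total counts they were HES1 in siSOX17 (-0.077), JAG1 in siWT1 (0.008), JAG2 non-additivity (0.041), HEY1 and MAML2 between siMECOM and siPAX8 (0.001 and 0.074), HES1 between siMECOM and siSOX17 (0.01), and NOTCH2 and JAG2 between siWT1 and siPAX8 (0.117 and 0.01). With siNT1 alone they were HES1 in siWT1 (-0.075) and JAG2 and HEY1 non-additivity (0.052 and -0.084), and with siNT2 alone HEY1 in siWT1 (-0.031). HEY1 non-additivity was -0.002 by DESeq2, -0.001 without mitochondrially encoded genes and -0.004 with no filter, which also gave -0.004 for NOTCH1 between siMECOM and siPAX8. Leaving out 1 library gave in siWT1 -0.024 to 0.165 for MAML2, -0.07 to 0.11 for NOTCH1, -0.178 to 0.265 for HEY1 and -0.02 to 0.05 for HES1. It gave -0.574 to 0.13 for NRARP between siDual and siPAX8, and -0.462 to 0.043 for HEY1 and -0.321 to 0.383 for NRARP between siDual and siSOX17. Non-additivity was -0.228 to 0.277 for HEY1 and -0.17 to 0.042 for JAG2. NOTCH3 between siPAX8 and siSOX17 was -0.084 to 0.104, NOTCH1 between siMECOM and siPAX8 -0.118 to 0.201, and NOTCH2 between siWT1 and siPAX8 -0.145 to 0.045. Between siNT1 and siNT2 DLL1 was -0.237 to 0.251, NOTCH1 -0.009 to 0.018 and JAG1 -0.023 to 0.096.

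Depth limits HEY1 (16 to 65 reads per library), DLL1 (28 to 352) and NRARP (33 to 445) most.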
